A study of Homo sapiens with 6 samples.

Results

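NF-kB is a family of dimeric transcription factors, and its subunits and feedback inhibitors were followed here in a human breast cancer cell line given an expression plasmid for HS3ST2 or a control vector. The group was fixed by gene name. It holds the 5 subunit genes NFKB1, NFKB2, REL, RELA and RELB, and the 5 genes NFKBIA, NFKBIE, TNFAIP3, BIRC3 and TRAF1, which encode inhibitors or signalling proteins of the same pathway. All probe sets annotated to exactly 1 of these symbols were taken, which gave 19 of the 54613 probe sets tested and 9 of the 19775 genes. BIRC3 had no probe set annotated to it alone, so no expression value is given for it.

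The cells were MDA-MB-231, an established line of mesenchymal appearance without oestrogen receptor. Affymetrix expression arrays were run on 3 samples of cells transfected with the HS3ST2 plasmid and on 3 samples of cells transfected with the control vector, with cRNA made from 3.6 µg of total RNA. HS3ST2 is a heparan sulfate 3-O-sulfotransferase, an enzyme that modifies sugar chains of the cell surface. The sources used here do not give the time after transfection, any selection or cloning of the cells, or whether the samples came from separate transfections, so p-values measure the spread between these arrays.

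In resting cells, NF-kB dimers are held in the cytoplasm by inhibitor proteins such as those made from NFKBIA and NFKBIE, and by the unprocessed precursors made from NFKB1 and NFKB2. Receptors for TNF, interleukin 1 and microbial products activate the IKK kinases, the inhibitors are degraded, and the dimers move to the nucleus and bind kappa B sites in DNA. Several target genes feed back on the pathway, among them NFKBIA and TNFAIP3, and MDA-MB-231 is known as a line with constitutive NF-kB activity.

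The pathway can act on its feedback genes through kappa B sites near their starts, and binding was not measured here. The stretch from 130 bases before to 50 bases after the annotated start is shown for 4 members. TNFAIP3 and REL are the members with the largest rise and the largest fall, NFKBIA is the classical feedback inhibitor, and NFKB2 is shown at its second annotated start, which holds 2 separate stretches. The sequences are from RefSeq on GRCh38.p14, written along each gene's strand, with matches to the kappa B consensus on either strand in capitals.
TNFAIP3, chr6:137867129-137867308, plus strand: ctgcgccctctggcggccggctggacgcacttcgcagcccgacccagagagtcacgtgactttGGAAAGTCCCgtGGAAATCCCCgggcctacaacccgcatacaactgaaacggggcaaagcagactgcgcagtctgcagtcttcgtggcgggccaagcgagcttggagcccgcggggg
REL, chr2:60881444-60881623, plus strand: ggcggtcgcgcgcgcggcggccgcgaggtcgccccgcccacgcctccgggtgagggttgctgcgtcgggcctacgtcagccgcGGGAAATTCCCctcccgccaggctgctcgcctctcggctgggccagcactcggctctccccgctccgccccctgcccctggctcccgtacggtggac
NFKBIA, chr14:35404700-35404879, minus strand: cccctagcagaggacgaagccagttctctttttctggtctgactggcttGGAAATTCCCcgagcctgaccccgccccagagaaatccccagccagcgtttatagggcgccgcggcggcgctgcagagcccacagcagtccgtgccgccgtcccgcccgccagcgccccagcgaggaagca
NFKB2, chr10:102394448-102394627, plus strand: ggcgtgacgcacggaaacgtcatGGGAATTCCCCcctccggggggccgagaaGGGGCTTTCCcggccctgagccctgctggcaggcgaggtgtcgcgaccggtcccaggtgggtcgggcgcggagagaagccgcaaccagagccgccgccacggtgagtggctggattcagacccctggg

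The windows searched ran from 250 bases before to 50 bases after each start, on both strands. The consensus was present in 6 of the 8 member genes with a promoter entry, and in 7 of their 14 windows. Over all promoters it was present in 7.09% of 27305 genes and in 5.91% of 35116 windows. The gene record of TNFAIP3 begins at chr6:137866349, upstream of its promoter window. In that window, TNFAIP3 held matches beginning 67 and 55 bases before the annotated start that the window surrounds. Read on their own strand they were GGGACTTTCC and GGGGATTTCC. The first of these letters, GGGACTTTCC, also stood 21 bases before the third annotated start of NFKB2, and the second, GGGGATTTCC, stood 199 bases before the start of BIRC3. REL, NFKBIA and NFKB1 shared the match GGGAATTTCC, beginning 46, 81 and 49 bases before their starts in that order. In REL it overlapped a match on the gene's own strand that began 47 bases before the start. No match was present in the 2 windows of RELA or the 3 windows of TRAF1. A match describes these letters only, and is not evidence of binding.

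**Figure D1:**
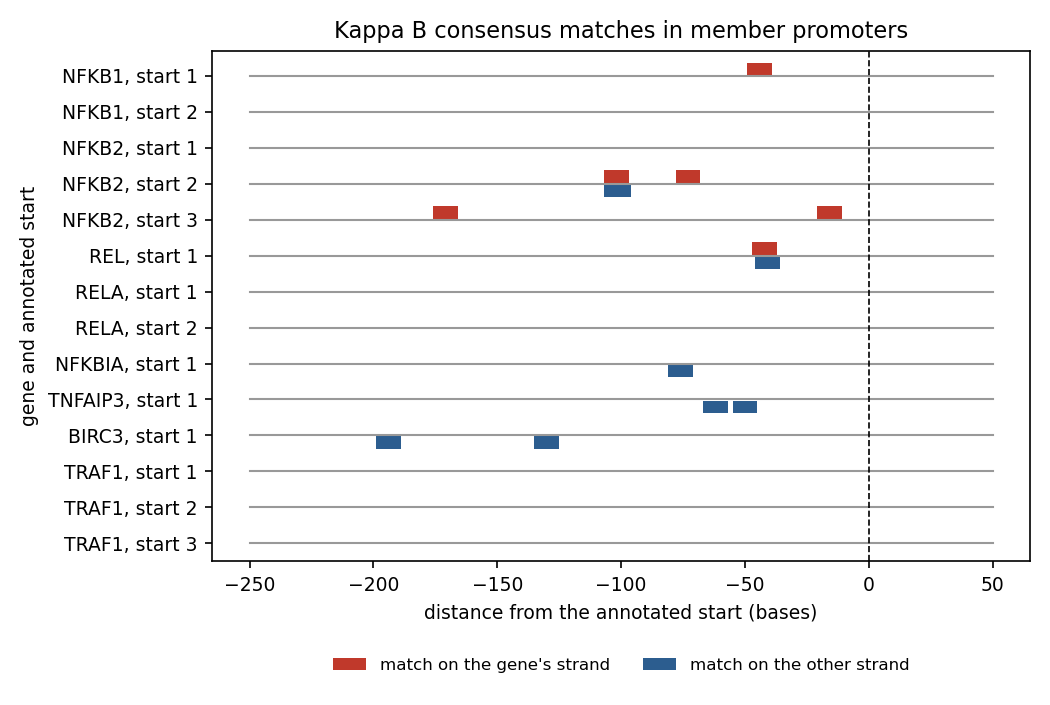
Matches to the kappa B consensus in the 14 promoter windows of 8 member genes, by distance in bases from each annotated start. Each horizontal line is 1 window, red bars are matches on the gene's strand and blue bars matches on the other strand. The windows of RELA and TRAF1 hold none.

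All expression values below are log2 values that had been centred, for each probe set, on its median over the 6 arrays. A value of 0 is therefore the middle of the arrays and not an absence of signal, levels of different genes cannot be compared, and probe sets near background cannot be recognised. The probe set for HS3ST2 itself did not separate the groups. It had values of 0.16, 0.04 and -0.04 in the HS3ST2 arrays and -0.22, 0.17 and -0.11 in the control vector arrays, a difference of 0.11 ± 0.11 log2 (SE, n = 3 per group, limma adjusted p = 0.597). The labels do not say whether it matches the plasmid's transcript, and the groups rest on the array labels throughout. Over all probe sets, the median absolute difference between 2 arrays was 0.1 to 0.122 log2 within groups and 0.16 to 0.193 between groups. Control probe sets of a kind were summarised by their median on each array. For ribosomal RNA this averaged 0.31 ± 0.38 in the HS3ST2 arrays and -0.18 ± 0.12 in the control vector arrays (SD, n = 3 each). The highest value, 0.74, was in HS3ST2 replicate 3. Spike-in controls with poly(A) tails, which are added RNAs and not the cells' own, averaged 0.24 ± 0.40 in the HS3ST2 arrays and -0.34 ± 0.46 in the control vector arrays. HS3ST2 replicate 3 was the highest of these at 0.70 and control vector replicate 3 the lowest at -0.85, and the groups overlapped. The part of these controls in the results below was not tested.

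Among the members, TNFAIP3 was higher and REL and NFKBIE were lower in the HS3ST2 arrays, while 6 genes were not called. By gene mean, TNFAIP3 rose by 0.76 ± 0.05 log2 (1.69-fold), REL fell by 0.35 ± 0.06 and NFKBIE fell by 0.32 ± 0.07 (SE, n = 3 per group). A call here is a Benjamini-Hochberg adjusted p under 0.05 in a limma fit over all genes or all probe sets. Of all genes, 24.5% were called, 11.5% higher and 13% lower, and the members' 3 of 9 stands near that background. The differences were negative for 8 of the 9 genes, and their median was -0.16, against 0.01 for all genes. The groups did not overlap in 5 of the 9 genes, 1 above and 4 below, where 40.4% of all genes did not overlap. Without HS3ST2 replicate 3, or without control vector replicate 2, NFKBIE was no longer called (adjusted p = 0.0521 and 0.0595) and REL was the 1 gene called lower.

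At the level of single probe sets, 2 were called higher, 7 lower and 10 were not called. Of all probe sets, 16.9% were called, 7.9% higher and 8.98% lower. No overlap between the groups was seen in 10 of the 19 member probe sets, 2 with the HS3ST2 arrays above and 8 below, against 34.1% of all probe sets in either direction. The count of lower probe sets was 3 without HS3ST2 replicate 1, 4 without HS3ST2 replicate 3 and 4 without control vector replicate 2. Probe sets of the same gene share its RNA and are not replicates of the comparison. Differences in bulk RNA cannot tell fewer cells with a transcript from less of it per cell.

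**Figure D2:**
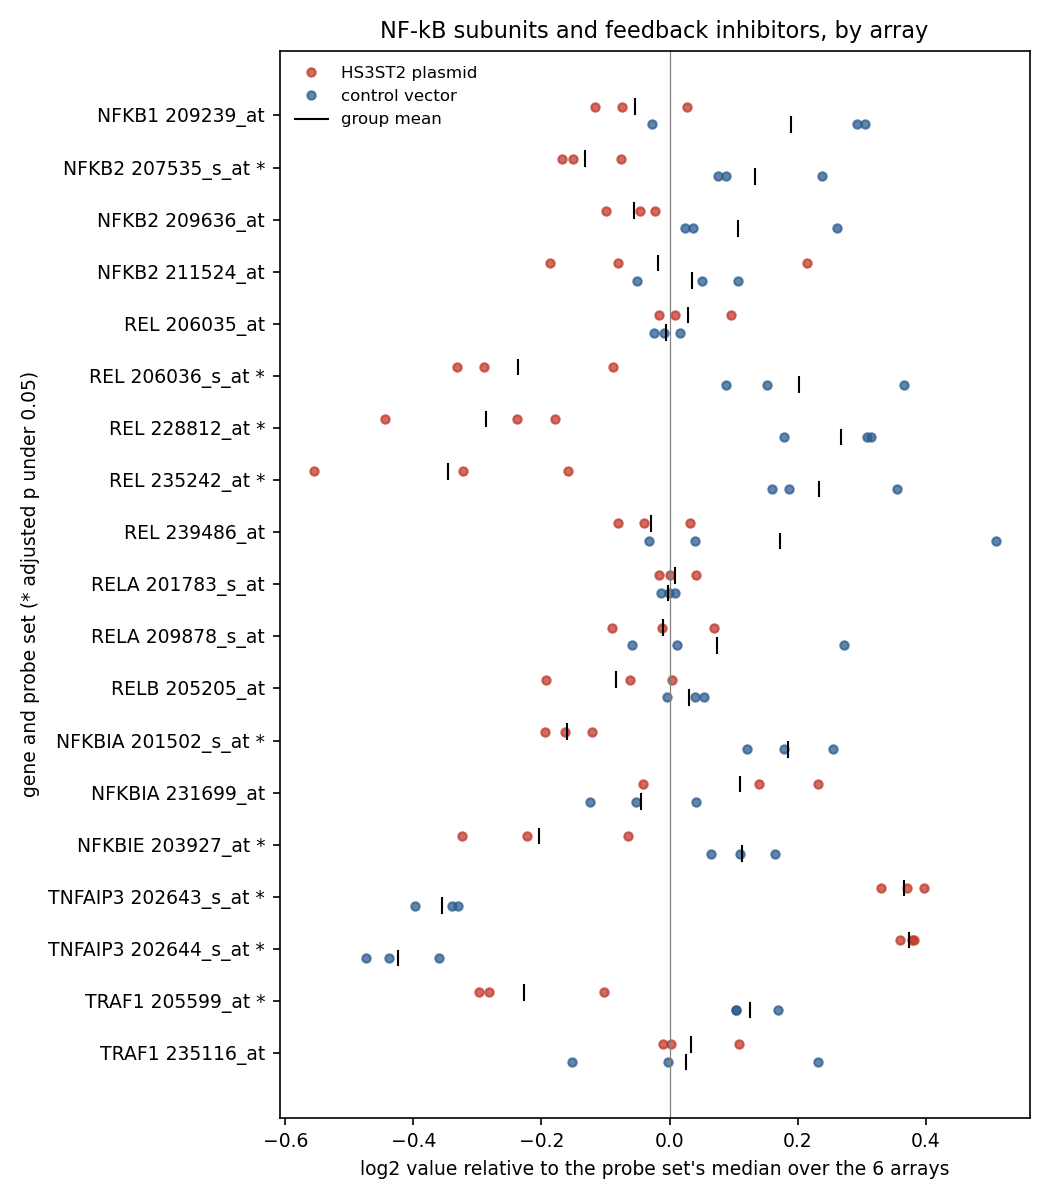
Centred log2 value of each of the 19 member probe sets on each of the 6 arrays, with the HS3ST2 arrays above the control vector arrays for each probe set. The 2 TNFAIP3 probe sets separate fully with HS3ST2 higher, 3 of the 5 REL probe sets separate with HS3ST2 lower, and both RELA probe sets overlap.

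The subunits were led by REL, which encodes c-Rel, a subunit with a transactivation domain best known from lymphocytes. Probe set 228812_at had values of -0.44, -0.18 and -0.24 in the HS3ST2 arrays and 0.18, 0.31 and 0.32 in the control vector arrays. Probe set 235242_at had -0.32, -0.56 and -0.16 in the HS3ST2 arrays, against 0.19, 0.35 and 0.16 in the control vector arrays. Every HS3ST2 array lay below every control vector array in both. Their differences were -0.55 ± 0.09 (adjusted p = 0.00478) and -0.58 ± 0.11 (adjusted p = 0.0102). Another REL probe set, 206036_s_at, fell by 0.44 ± 0.10 (limma adjusted p = 0.0216), with -0.33, -0.29 and -0.09 in the HS3ST2 arrays and 0.37, 0.09 and 0.15 in the control vector arrays. Its groups did not overlap, but its call was lost without HS3ST2 replicate 1, HS3ST2 replicate 2 or control vector replicate 1. The other two REL probe sets were not called. One of them, 239486_at, differed by -0.20 ± 0.14 with 1 control vector array at 0.51 and the other 5 arrays between -0.08 and 0.04. The other, 206035_at, differed by 0.03 ± 0.06 with all arrays between -0.02 and 0.10. The gene mean of REL therefore averages 3 probe sets that fell and 2 that were not called.

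NFKB2 encodes the precursor of the p52 subunit, which also acts as an inhibitor before it is processed. Its probe set 207535_s_at had -0.08, -0.17 and -0.15 in the HS3ST2 arrays and 0.24, 0.08 and 0.09 in the control vector arrays, a difference of -0.26 ± 0.07 (limma adjusted p = 0.0441). The groups did not overlap, but the call was lost when any 1 of the 6 arrays was left out. Probe set 209636_at differed by -0.16 ± 0.08 without overlap (adjusted p = 0.247) and 211524_at by -0.05 ± 0.11 with overlap (adjusted p = 0.804). The gene mean of NFKB2 differed by -0.16 ± 0.06, and its 95% interval ran from -0.29 to -0.03 (limma adjusted p = 0.0794).

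NFKB1 encodes the precursor of p50, the common partner of RelA. Its single probe set had -0.07, -0.12 and 0.03 in the HS3ST2 arrays and -0.03, 0.29 and 0.31 in the control vector arrays. Control vector replicate 1 lay among the HS3ST2 arrays, and the other two control vector arrays lay above them all. The gene differed by -0.24 ± 0.10 (adjusted p = 0.106). Without control vector replicate 1 it differed by -0.35 and was called (limma adjusted p = 0.0293 among probe sets and 0.0102 among genes).

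RELA, which encodes p65, the main activating subunit in most cells, showed the smallest difference of the 9 genes. Its gene mean differed by -0.04 ± 0.06, with a 95% interval from -0.17 to 0.10 (adjusted p = 0.711). Probe set 201783_s_at lay between -0.02 and 0.04 on all 6 arrays, and 209878_s_at differed by -0.09 ± 0.10 with 1 control vector array at 0.27. RELB, the partner of p52 in the noncanonical pathway, had -0.06, -0.19 and 0.00 in the HS3ST2 arrays and 0.04, 0.05 and 0.00 in the control vector arrays. Its difference was -0.11 ± 0.06 (adjusted p = 0.251). The intervals of RELA and RELB each include 0, and neither gene was called.

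The inhibitor genes did not move together. NFKBIA encodes IkB-alpha, the inhibitor that is degraded and resynthesised soon after activation, and its probe sets differed in opposite directions. Probe set 201502_s_at had -0.16, -0.19 and -0.12 in the HS3ST2 arrays and 0.26, 0.18 and 0.12 in the control vector arrays, and fell by 0.34 ± 0.07 (limma adjusted p = 0.0112). Probe set 231699_at had 0.14, -0.04 and 0.23 in the HS3ST2 arrays and -0.05, 0.04 and -0.12 in the control vector arrays, a difference of 0.16 ± 0.09 (adjusted p = 0.31). The groups did not overlap in the first and overlapped in the second. The gene mean, -0.09 ± 0.06 (adjusted p = 0.345), averages these opposite values and was not called.

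NFKBIE encodes IkB-epsilon, a slower feedback inhibitor that binds dimers holding RelA or c-Rel. Its single probe set had -0.32, -0.07 and -0.22 in the HS3ST2 arrays and 0.07, 0.16 and 0.11 in the control vector arrays. Every HS3ST2 array lay below every control vector array, with HS3ST2 replicate 2 nearest to the control vector arrays. The gene fell by 0.32 ± 0.07, 1.25-fold (limma adjusted p = 0.0164). In the fit over probe sets the adjusted p was 0.0362, and that call was lost without HS3ST2 replicate 1 or 3 or any 1 control vector array.

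TNFAIP3 encodes A20, an enzyme that edits ubiquitin chains and shuts off signalling from TNF and Toll-like receptors. Probe set 202643_s_at had 0.40, 0.33 and 0.37 in the HS3ST2 arrays, against -0.34, -0.33 and -0.40 in the control vector arrays. Probe set 202644_s_at had 0.36, 0.38 and 0.38 in the HS3ST2 arrays, against -0.44, -0.36 and -0.47 in the control vector arrays. The groups were far apart in both, and the 3 arrays of a group lay close together. The probe sets rose by 0.72 ± 0.06 (adjusted p = 3.5e-04) and 0.80 ± 0.06 (adjusted p = 2.53e-04). The gene mean was 0.37 ± 0.01 in the HS3ST2 arrays and -0.39 ± 0.05 in the control vector arrays (SD, n = 3 each). The 95% interval of its rise of 0.76 ran from 0.64 to 0.88 (limma adjusted p = 4.95e-05). By p it ranked 179 of 19775 genes, and 1.01% of genes had a difference at least as high. Both probe sets carry the suffix _s_at, which the maker gives to probes that match several transcripts.

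TRAF1 encodes an adaptor at TNF receptors that is itself a known NF-kB target. Its probe set 205599_at had -0.30, -0.10 and -0.28 in the HS3ST2 arrays and 0.10, 0.17 and 0.10 in the control vector arrays, and fell by 0.35 ± 0.08 (limma adjusted p = 0.0169). The groups did not overlap in it, but the call was lost without HS3ST2 replicate 1, HS3ST2 replicate 3 or control vector replicate 2. Probe set 235116_at overlapped, with a difference of 0.01 ± 0.10 (adjusted p = 0.972). The gene mean differed by -0.17 ± 0.06 and was not called (adjusted p = 0.0781).

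Ordered from high to low by difference, the genes were TNFAIP3, RELA, NFKBIA, RELB, NFKB2, TRAF1, NFKB1, NFKBIE and REL. The 95% interval of TNFAIP3 lay wholly above that of RELA, the next gene. The intervals of every other pair of neighbours in this order overlapped.

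**Figure D3:**
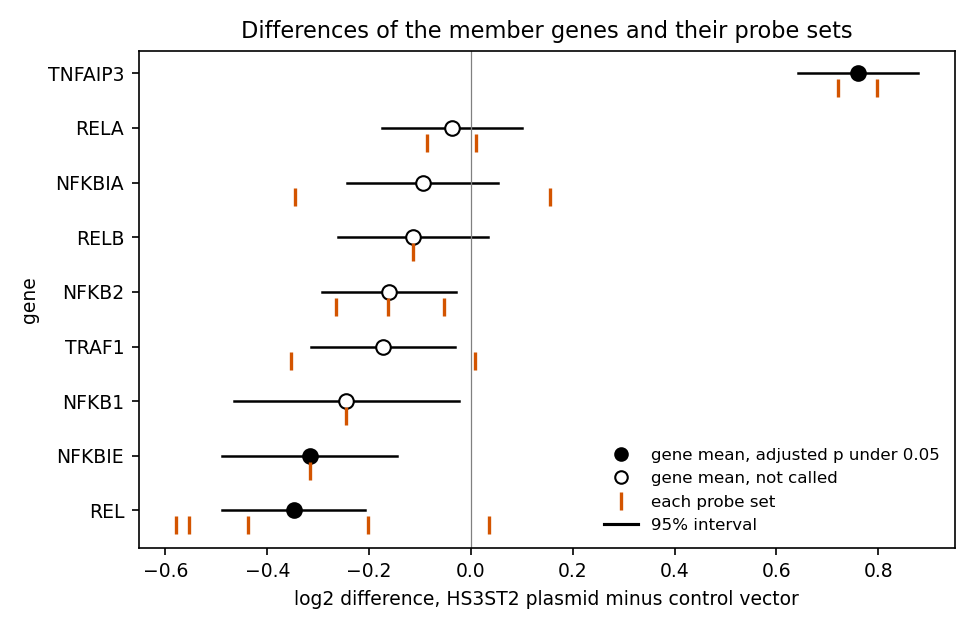
Log2 difference, HS3ST2 minus control vector, for each member gene (mean of its probe sets) with its 95% interval, and for its single probe sets. TNFAIP3 lies at 0.76 with both probe sets above 0, whereas the probe sets of NFKBIA lie at -0.34 and 0.16.

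The genes beside the members were read next, as the nearest measured gene on each side in the gene order of GRCh38.p14. Of these 20 neighbours, 2 were called higher, 3 lower and 15 were not called, near the 24.5% called among all genes. All 5 calls were kept without HS3ST2 replicate 3. Both that rose lie beside TNFAIP3. WAKMAR2, a long noncoding RNA whose record overlaps that of TNFAIP3, had 1.25, 0.96 and 1.30 in the HS3ST2 arrays and -0.96, -1.25 and -0.998 in the control vector arrays. The groups were fully separated, and it rose by 2.24 ± 0.11 log2, 4.73-fold (limma adjusted p = 1.39e-05). This value rests on 1 probe set. PERP, a desmosomal gene on the other side, rose by 0.20 ± 0.05 (adjusted p = 0.0219), a call lost without HS3ST2 replicate 1 or 2 or without control vector replicate 2 or 3. Its difference was 0.06 when probe sets ending in _x_at or _s_at were left out.

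A window of 500 kb around TNFAIP3 was chosen after the value of WAKMAR2 was seen, and held 6 measured genes. Besides TNFAIP3, WAKMAR2 and PERP, ARFGEF3 fell by 0.32 ± 0.08 (limma adjusted p = 0.0192), and OLIG3 and PBOV1 were not called (adjusted p = 0.684 and 0.585). The differences around TNFAIP3 thus had both signs. Beside other members, PHF19 next to TRAF1 fell by 0.69 ± 0.07 (adjusted p = 2.71e-04). MANBA next to NFKB1 fell by 0.47 ± 0.08 (adjusted p = 0.00445), and HSP90AB1 next to NFKBIE fell by 0.37 ± 0.06 (adjusted p = 0.00245). On either side of BIRC3, which has no value here, YAP1 differed by 0.07 and BIRC2 by -0.17 (adjusted p = 0.0699), neither called.

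**Figure D4:**
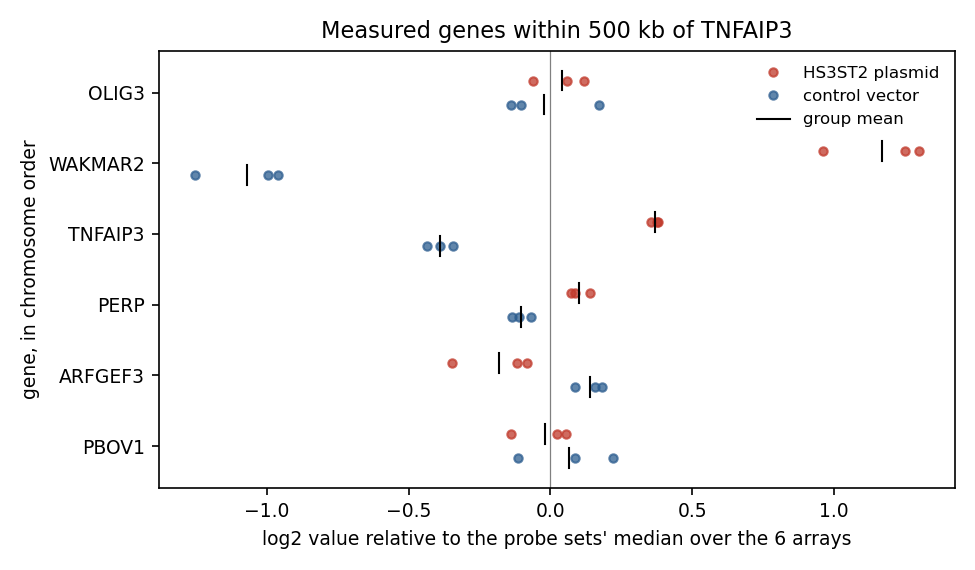
Centred log2 values on each array for the 6 measured genes within 500 kb of TNFAIP3, in gene order, with HS3ST2 and control vector arrays in separate colours. WAKMAR2 shows the widest gap between groups, a difference of 2.24, and OLIG3 and PBOV1 overlap.

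Likeness of pattern was measured as the root mean square difference in gene mean over the 6 arrays, among 19766 genes that are not members. Nearest to TNFAIP3 were BORCS7 at 0.0352 log2, LXN at 0.0379 and SCAT1 at 0.0390, which differed by 0.75, 0.74 and 0.72 between the groups in that order. Nearest to REL were TFPI2 at 0.0189, EXOSC9 at 0.0215 and TIMM9 at 0.0248, with differences of -0.35, -0.34 and -0.35. Since genes were picked by nearness over the same 6 arrays, their differences had to lie close to those of TNFAIP3 and REL.

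The rest of the pathway was read by role from lists of 94 genes, of which 88 were given values. The TRAF2 entry, matched by synonym, holds the values of TANK, so TRAF2 itself has none. Together 15 were called higher, 30 lower and 43 were not called, with a median difference of -0.08. Among all genes, 11.5% were called higher and 13% lower, with a median of 0.01, and the counts by role below are to be read against these shares. The 2 risen genes of 15 receptors and of 14 adaptors and ligases stand near that background. Without HS3ST2 replicate 3, 14 were higher and 28 lower. By role, the counts then differed for receptors (1 higher and 5 lower), kinases with their partner proteins (2 lower) and other inhibitors (2 lower). Counts of the other roles equalled those given below. From probe sets lacking the suffixes _x_at and _s_at alone, 13 of 71 genes were higher and 17 lower. Of 15 receptor genes, 2 rose, 4 fell and 9 were not called (median -0.08). TNFRSF1B, the second TNF receptor, fell by 1.21 ± 0.09 (2.32-fold, adjusted p = 6.80e-05), with -0.49, -0.67 and -0.52 in the HS3ST2 arrays and 0.77, 0.49 and 0.70 in the control vector arrays. TNFRSF11A, which encodes RANK, fell by 1.14 ± 0.13 (limma adjusted p = 5.90e-04). The Toll-like receptors TLR2 and TLR4 differed in opposite directions, by -0.83 ± 0.07 (limma adjusted p = 1.50e-04) and 0.61 ± 0.06 (adjusted p = 3.68e-04). The receptor count of 2 risen genes was 1 without HS3ST2 replicate 1 or 3 or control vector replicate 2.

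Of 6 measured ligand genes, 2 rose, 2 fell and 2 were not called (median -0.02). The interleukin 1 genes IL1B and IL1A fell by 0.63 ± 0.06 (limma adjusted p = 1.72e-04) and 0.58 ± 0.06 (adjusted p = 5.04e-04), whereas TNFSF13B, which encodes BAFF, rose by 0.74 ± 0.08 (limma adjusted p = 4.33e-04). LTA rose by 0.25 ± 0.07 (limma adjusted p = 0.0415), and this call was lost without HS3ST2 replicate 1 or 2 or any 1 control vector array, which left 1 ligand called higher. The fall of IL1A was 0.34 and no longer called when probe sets ending in _x_at or _s_at were left out (adjusted p = 0.0679). Of 14 adaptors and ubiquitin ligases, with TANK in place of TRAF2, 2 rose, 4 fell and 8 were not called (median -0.10). MYD88, the adaptor of interleukin 1 and Toll-like receptors, rose by 0.44 ± 0.06 (limma adjusted p = 0.00151), and the downstream kinase IRAK2 fell by 0.35 ± 0.06 (adjusted p = 0.00302). RBCK1, a subunit of the linear ubiquitin ligase, fell by 0.34 ± 0.06 (limma adjusted p = 0.00629). UBE2N, a ubiquitin-conjugating enzyme, fell by 0.29 ± 0.05 (limma adjusted p = 0.0033), with a difference of -0.00 in the probe set that lacks those suffixes.

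Of 10 genes for kinases or their partner proteins, acting on the members' proteins or upstream, 2 rose, 3 fell and 5 were not called (median -0.06). Those not called include TAB1, TAB2, TAB3 and IKBKG, which are partner proteins and not kinases. IKBKB, the catalytic IKK subunit that phosphorylates IkB-alpha, had 0.41, 0.22 and 0.29 in the HS3ST2 arrays and -0.21, -0.42 and -0.36 in the control vector arrays. It rose by 0.64 ± 0.08 (limma adjusted p = 7.67e-04) without overlap, and each of its 3 probe sets, all ending in _s_at, was called higher. CHUK, the other catalytic subunit, rose by 0.28 ± 0.06 (limma adjusted p = 0.00743). TBK1 fell by 0.36 ± 0.05 (limma adjusted p = 0.0020) and MAP3K14, the kinase of the noncanonical pathway, fell by 0.35 ± 0.07 (adjusted p = 0.00781). Of the 7 genes of this role with a probe set lacking the suffixes _x_at and _s_at, 2 were called from these alone, both lower. Of 16 other inhibitors, 3 rose, 4 fell and 9 were not called (median -0.01). N4BP1, a suppressor of cytokine production, rose by 0.51 ± 0.05 (limma adjusted p = 2.20e-04). RNF11, a partner of A20, and CYLD, another deubiquitinase of the pathway, rose by 0.29 ± 0.06 (limma adjusted p = 0.00716) and 0.23 ± 0.05 (adjusted p = 0.0116). COMMD1, which promotes degradation of RelA, fell by 0.31 ± 0.07 (limma adjusted p = 0.0141), a call lost without HS3ST2 replicate 1 (adjusted p = 0.0511). The count of 4 lower inhibitors was 1 without HS3ST2 replicate 1, control vector replicate 1 or control vector replicate 3, and 2 without any other single array.

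Of 27 measured target genes outside the member group, 4 rose, 13 fell and 10 were not called, with a median of -0.14. CCL20, a chemokine, had -0.93, -0.92 and -1.12 in the HS3ST2 arrays and 1.43, 1.13 and 0.92 in the control vector arrays, and fell by 2.15 ± 0.12 (4.44-fold, limma adjusted p = 2.47e-05). VCAM1, an adhesion molecule, and the cytokine IL6 fell by 1.47 ± 0.05 (limma adjusted p = 3.49e-06) and 1.10 ± 0.06 (adjusted p = 1.79e-05), and the chemokine CXCL3 fell by 0.92 ± 0.06 (adjusted p = 3.22e-05), each without overlap. From probe sets lacking those suffixes alone, 7 of 19 targets were lower and 4 higher. TNFAIP3, itself a target of the pathway, lay on the opposite side of 0 from CCL20, VCAM1, IL6 and CXCL3. The 4 targets that rose, named after their values were seen, were GADD45B by 0.71, BCL2L1 by 0.44, CFLAR by 0.36 and IRF1 by 0.31. Leukocytes are rich in NF-kB proteins, and of 13 measured leukocyte marker genes 0 were called in limma and 0 had an unadjusted p under 0.05, with differences from -0.15 to 0.24 and a median of 0.05. The FCGR3A entry among these markers, matched by synonym, holds the values of FCGR3B. The samples were of a cell line, and the markers' levels cannot be read from centred values. These counts therefore cannot tell whether any leukocytes were present.

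**Figure D5:**
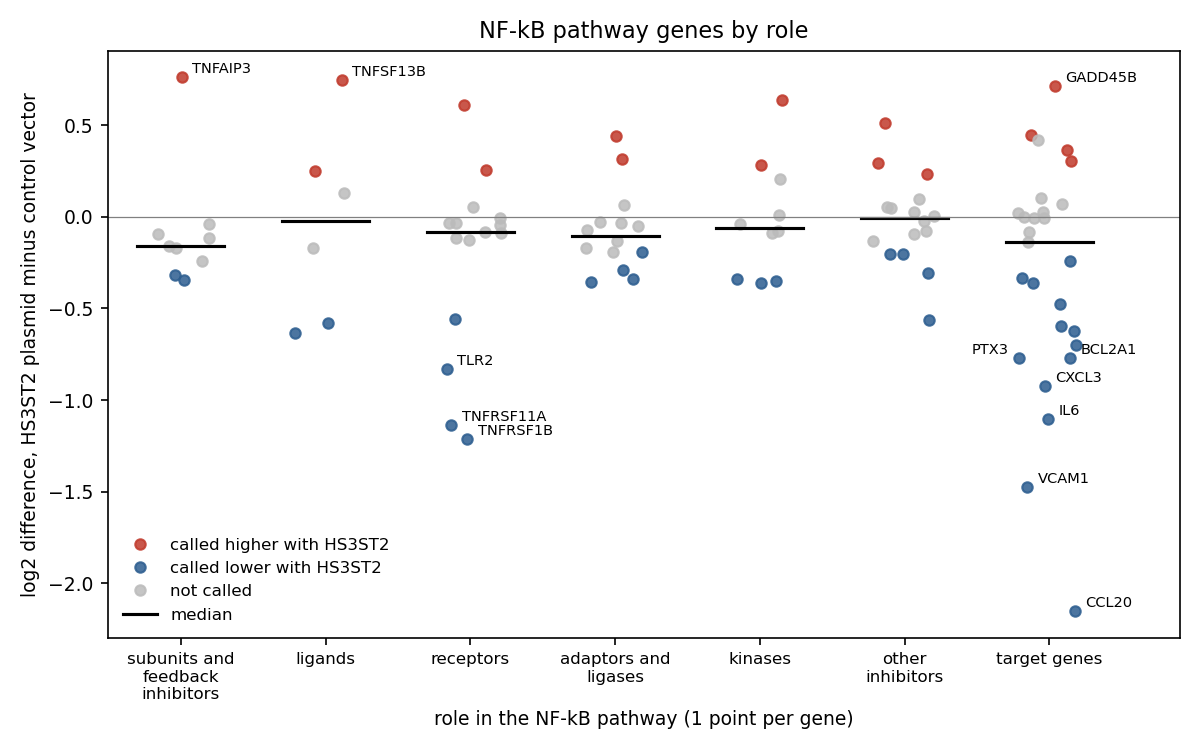
Log2 difference, HS3ST2 minus control vector, for each measured gene of the NF-kB pathway by role, with 1 point per gene and the median of each role as a bar. TNFAIP3 lies at the top of the subunits and feedback inhibitors, and 13 of 27 target genes were called lower.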

How the data were processed

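The deposited table holds 54675 probe sets on 6 arrays. Its log2 values were made by the authors with RMA, per the submitters' processing notes, and every probe set has a median of 0 over the arrays within 4.8e-07, so each had been centred on its own median by a step whose software is not given. No source states the base of the logarithm, which was taken to be 2. Arrays give no counts, and their number limits the precision.

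From these values 62 control probe sets were set aside. GEO's platform annotation gave 1 symbol for 41091 of the 54613 others, several for 1801 and none for 11721. A gene is the mean of its probe sets with 1 symbol. HS3ST2 and control vector arrays were compared with limma 3.58.1 (lmFit and eBayes, R 4.3.3) without covariates, over all probe sets and over all genes, with Benjamini-Hochberg adjustment and a threshold of 0.05. The scripts were tested on simulated data.

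The members and lists were chosen with earlier results of these data known. Named are all 10 members, up to 4 called genes of each pathway list with the smallest p, the 3 genes nearest in pattern to the most risen and most fallen member, and each member's measured neighbours. The alternatives tried were each array left out in turn, a replicate block, quantile normalization, median centring, robust eBayes, array weights, a threshold of 0.01, leaving out probe sets ending in _x_at or _s_at, the median of a gene's probe sets or the one with the largest SD, and a wider kappa B consensus, chosen after seeing the data. Promoter sequences are RefSeq's. The array file names no genome build, so probe sets were not placed on a genome. The promoter coordinates, the gene order and the distances between genes are those of RefSeq's tables on GRCh38.p14.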

Additional observations from a re-analysis of the deposited data

Results flagged for a closer look

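The 6 control probe sets for ribosomal RNA, which lie outside the gene comparison, were higher in the HS3ST2 arrays. Their medians were 0.02, 0.16 and 0.74 log2 in HS3ST2 replicates 1, 2 and 3, and -0.20, -0.06 and -0.29 in control vector replicates 1, 2 and 3. The difference was 0.49, with no overlap between the groups and a two-sided exact permutation p of 0.1, the smallest that 3 against 3 arrays allow. The 27 spike-in control probe sets with poly(A) tails had a larger difference, 0.58, but overlapped between the groups. Their medians were 0.02, -0.01 and 0.70 in HS3ST2 replicates 1, 2 and 3, and 0.04, -0.22 and -0.85 in control vector replicates 1, 2 and 3 (exact permutation p = 0.3). The differences between 3-prime and 5-prime probe sets overlapped between the groups. HS3ST2 minus control vector, they differed by 0.02 for GAPDH and 0.15 for ACTB on the log2 scale (exact permutation p = 0.3 and 0.2). The part of the ribosomal and spike-in signals in the members' values was not tested.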

How the results depend on the processing

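Quantile normalization, median centring and robust eBayes left every call count of the members within 1.5 times its main value, and no called difference changed sign under any alternative. Of 874 gene differences recomputed, 841 kept their side of the threshold, 23 lost a call and 10 gained one, and of 240 for member probe sets these numbers were 215, 24 and 1. Leaving out 1 array gave 3 to 5 lower probe sets in place of 7, and 1 to 3 lower genes in place of 2. At an adjusted p under 0.01, 1 probe set and 1 gene were lower. When probe sets with the suffix _x_at or _s_at were left out, 4 of the 12 remaining member probe sets were lower and 0 higher. Then 0 member genes were higher, since both TNFAIP3 probe sets are left out. Of the 71 pathway genes that kept a probe set, 17 were lower, in place of 30 of 88. That setting also ended the calls of IL1A (-0.34, limma adjusted p = 0.0679) and took UBE2N to -0.00. With the probe set of largest SD for each gene, 5 member genes were lower, and the cause was not tested. That SD runs over all 6 arrays and includes the group difference, so this choice is not independent of the comparison. With the replicate block, 6 member probe sets, 2 member genes and 26 pathway genes were lower. Same-numbered arrays correlated at 0.152, 0.0407 and -0.0826 in their deviations from the group means, and other pairs at -0.195 to 0.182. With 3 arrays per group, these values cannot tell whether the numbers pair the samples. A wider consensus was present in 11.3% of promoter windows and in 6 of 8 member genes. Filters on dim probe sets need levels, which centring removed, and were not run.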

Other observations

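Calls were also counted over all measured genes with a promoter entry. Of 1303 genes with the kappa B consensus, 13.2% were higher and 16.8% lower in the HS3ST2 arrays, with a median difference of -0.00. Of 14081 genes without it, 11.7% were higher and 13.3% lower, with a median of 0.01. No test was made of these shares.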
